A study of Mus musculus with 28 samples.

Results

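Ccl17, Ccl22 and Ccl24 are CC chemokines that macrophages release in type 2 immune responses. They were found by their gene names in the scanner files, where 4 of 41174 probes, and 3 of 27670 gene names, belonged to them. Ccl24 had 2 probes, and the brighter by mean processed signal over all arrays was used for it. RNA came from bone marrow-derived macrophages of C57BL6/J mice aged 8 to 12 weeks, and 28 arrays were hybridised with 1 colour each. The marrow of several animals was pooled (the labels name 2 males and 1 female), cells grew in human recombinant CSF1 (200 ng/ml), a macrophage growth factor, and stimulation began on day 7.

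All groups shared that culture and differed in what was added. There were 7 arrays of untreated cells and 7 of cells given LPS (10 ng/ml) for 4 h. IL-4 (10 ng/ml) was given for 18 h to 4 cultures, and 4 more received IL-4 for 18 h with LPS in the last 4 h. IFN-γ (100 U/ml) was given for 18 h to 3 cultures, and 3 more received IFN-γ for 18 h with LPS in the last 4 h. Each array is named here by its group and the letter of its experiment (A to G in the groups without priming). Of 46 pairs of arrays from different groups with the same letter, 15 were scanned on the same day, so scan days do not follow the letters. A scan day does not tell which experiment an array came from, and which arrays belong together was not settled. Values grouped by letter, the planned grouping, are given beside values grouped by slide. The IL-4 groups hold letters A, B, C and G, whereas the IFN-γ groups hold E, F and G. The labels speak of independent experiments, and each culture drew on pooled animals, so the spread between arrays is not a spread between single animals.

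CCL17 and CCL22 both bind the receptor CCR4 and attract type 2 helper and regulatory T cells. CCL24, also named eotaxin-2, binds CCR3 and attracts eosinophils. IL-4 acts through its receptor and the transcription factor STAT6, whereas LPS acts through TLR4 and NF-κB. Type 2 chemokines are a known product of macrophages exposed to IL-4.

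Ccl22 and Ccl17 lie near each other on mouse chromosome 8, with Cx3cl1 between them, and Ccl24 lies on chromosome 5. The stretch around the transcription start of the pair on chromosome 8 is shown because the genes lie close together and both rose with LPS and further with LPS after IL-4. It runs from 250 bases before to 50 bases after the start, on the plus strand, and comes from RefSeq with the build GRCm38.p6, at chr8:94810203-94810502 for Ccl17 and chr8:94745434-94745733 for Ccl22. Capitals mark matches to STAT-type motifs, in which TTC and GAA are separated by 4 bases (the spacing STAT6 prefers) or by 3 bases (a general STAT spacing).
Ccl17: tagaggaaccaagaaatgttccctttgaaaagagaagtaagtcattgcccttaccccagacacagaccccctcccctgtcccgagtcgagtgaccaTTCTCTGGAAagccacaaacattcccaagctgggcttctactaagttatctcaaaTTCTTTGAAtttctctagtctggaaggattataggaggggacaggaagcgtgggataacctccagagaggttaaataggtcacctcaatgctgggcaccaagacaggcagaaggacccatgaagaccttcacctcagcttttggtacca
Ccl22: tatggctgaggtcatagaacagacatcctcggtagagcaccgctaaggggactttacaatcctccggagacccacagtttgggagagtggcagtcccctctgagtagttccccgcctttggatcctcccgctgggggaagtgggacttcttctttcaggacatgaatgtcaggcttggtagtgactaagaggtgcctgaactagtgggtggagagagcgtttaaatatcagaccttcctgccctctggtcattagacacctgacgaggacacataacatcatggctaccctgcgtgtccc
In the Ccl17 window the STAT6-type match TTCTCTGGAA lies 154 to 145 bases before the start, and TTCTTTGAA, of the 3-base spacing, lies 99 to 91 bases before it. Both strands were searched, and TTC with GAA reads the same on either strand. Of 32851 RefSeq promoter windows of this length, 6.95% held the STAT6-type motif, 8.30% the other STAT-type motif, and 0.679% held both. The Ccl22 window held neither, and no match to the NF-κB consensus was found in either window, against 8.46% of all windows. A missing match says only that those letters are not in that window. A window for Ccl24 was not used here.

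Signals were divided by each array's 75th percentile (578.7 to 2118.1 fluorescence units), and between 60.1% and 78.51% of probes stood well above background as the scanner software judged it. A filter on dim probes left 22400 genes to test, the 3 chemokines among them. The treatment labels were checked on 3 response genes: Retnla, an IL-4 target, averaged 7.72 after IL-4 and 7.80 after IL-4 with LPS, and -8.75 to -7.97 in the other groups, on the log2 scale described next. Cxcl9, an IFN-γ target, averaged 7.15 and 7.79 in the IFN-γ groups. It also responded to LPS, at 4.74 after LPS and 2.70 after IL-4 with LPS, against -3.32 in untreated cells and -6.04 after IL-4. Il6, an LPS target, averaged 4.16 to 6.38 in the LPS groups and -8.11 to -2.67 in the groups without LPS. All 8 macrophage markers were above background on more than 14 of the 28 arrays.

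Levels are given as log2 of the processed signal over the array's 75th percentile, so 0 is the level that 3 in 4 probes do not exceed, and a step of 1 is a doubling. Since probes differ in brightness, levels are compared within a gene and only changes are compared between genes. Tests come from 1 limma model of all 28 arrays with Benjamini-Hochberg adjustment over all tested genes, and a call means an adjusted p under 0.05. In bulk RNA, fewer cells that express a gene and less RNA per cell cannot be told apart.

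LPS alone raised all 3 chemokines, Ccl17 by more than Ccl24. Ccl17, a CCR4 ligand, lay at a lowest level of -5.02, a median of -4.36 and a highest of -3.68 on the 7 untreated arrays. After LPS its lowest was -2.09, its median -0.44 and its highest 0.97. No LPS array overlapped an untreated one, and Ccl17 rose by 3.84 ± 0.38 (SE), or 14.3-fold, with a limma adjusted p of 5.30e-09.
Ccl22, the other CCR4 ligand, spanned -9.75 to -5.49 on untreated arrays with a median of -8.20, and only 2 of 7 of these were above background. Its LPS arrays ran from -3.22 to -1.88 with a median of -2.44. They did not overlap the untreated arrays, and the rise was 5.18 ± 0.51, or 36.4-fold (adjusted p 4.58e-09). On 3 of the 7 untreated arrays the scanner software had replaced the Ccl22 signal by a surrogate, so this fold depends on values near the floor. At the background floor, every spot not well above background was raised to the lowest signal on its array that was. In that setting, chosen after the data were seen, the rise was 3.78 ± 0.33 (limma adjusted p 4.81e-10). Under normexp background correction it was 1.67 (limma adjusted p 0.00818). Normexp was run with an offset of 50 units added to each signal, which by itself shrinks folds between dim signals.
Ccl24, the eosinophil attractant, ran from -5.14 to -1.82 on untreated arrays (median -4.27) and from -3.14 to -0.78 after LPS (median -2.57). The groups overlapped through untreated array G, the highest of its group. The rise of 1.83 ± 0.49, or 3.55-fold, passed the test (adjusted p 0.00307). Under normexp background correction the Ccl24 rise was 0.89 and was not called (adjusted p 0.255, limma). All 3 were called higher, and LPS raised 20.9% of all tested genes and lowered 21.6%. Between genes, the LPS change was larger in Ccl17 than in Ccl24 by 2.01 (exact permutation test, adjusted p 0.0262 over 15 such differences). It was larger in Ccl22 than in Ccl24 by 3.36 (adjusted p 0.0175, exact permutation), by 1.95 at the background floor (0.0227) and by 0.78 under normexp, which did not pass (0.0533). The change of Ccl17 minus that of Ccl22 was -1.35 (exact permutation, adjusted p 0.118), and its sign turned at the background floor (0.058) and under normexp (0.62).

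IL-4 alone separated Ccl24 from the pair on chromosome 8. Ccl24 stood at 1.41, 2.25, 3.28 and 1.29 on arrays A, B, C and G, above every untreated and every LPS array. The rise over untreated cells was 6.10 ± 0.57, or 68.6-fold (limma adjusted p 2.26e-08).
Ccl17 stood at -3.66, -3.32, -1.69 and -4.21 on the same 4 arrays, and array G lay within the untreated range. Its change of 1.13 ± 0.45 did not pass (adjusted p 0.112, 95% interval 0.21 to 2.05), although it did under quantile normalization (1.28, adjusted p 0.0343).
Ccl22 stood at -6.91, -7.14, -5.74 and -6.02, only array G was above background, and all 4 arrays lay within the untreated range. Its change of 1.25 ± 0.60 did not pass either (adjusted p 0.217, 95% interval 0.02 to 2.48).
So 1 of the 3 was called higher, where IL-4 raised 5.85% of all genes and lowered 5.54%. The IL-4 response of Ccl17 minus that of Ccl24 was -4.97 and that of Ccl22 minus that of Ccl24 was -4.85, each with an exact permutation adjusted p of 0.0227, while Ccl17 minus Ccl22 was -0.12 (adjusted p 0.885, exact permutation), 0.49 at the background floor and 0.12 under normexp.

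With IL-4 and LPS together all 3 chemokines reached their highest level of the study. Ccl17 stood at 4.00, 4.84, 5.63 and 4.79 on arrays A, B, C and G, a mean of 4.81 ± 0.67 (SD, n = 4). This exceeded every other array of the study for this gene. The rise over LPS alone was 5.33 ± 0.45, or 40.1-fold (limma adjusted p 1.07e-08).
Ccl22 stood at 0.50, 0.91, 2.45 and 1.18, with a mean of 1.26 ± 0.84 (SD, n = 4), and did not overlap any other group. It rose 13.7-fold over LPS alone, 3.78 ± 0.60 on the log2 scale (adjusted p 9.89e-05, limma).
Ccl24 stood at 5.69, 5.98, 6.66 and 4.16, with a mean of 5.62 ± 1.06 (SD, n = 4), again above all other groups. It exceeded LPS alone by 7.84 ± 0.57, or 229-fold (adjusted p 1.23e-09, limma).
All 3 were called higher, where IL-4 with LPS exceeded LPS alone in 4.36% of tested genes and fell below it in 4.63%. Against untreated cells the rises were 9.16 ± 0.45, 8.96 ± 0.60 and 9.67 ± 0.57 for Ccl17, Ccl22 and Ccl24, where 21.6% of all genes were called higher. The Ccl22 value starts from untreated arrays of which 2 of 7 were above background, and under normexp the rises were 7.26, 4.61 and 7.94. The joint rise over LPS alone was largest in Ccl24, with a difference of -2.51 for Ccl17 minus Ccl24 and -4.06 for Ccl22 minus Ccl24 (exact permutation adjusted p 0.0303 and 0.0227). It was larger in Ccl17 than in Ccl22 by 1.55 (exact permutation, adjusted p 0.0303).

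**Figure D1:**
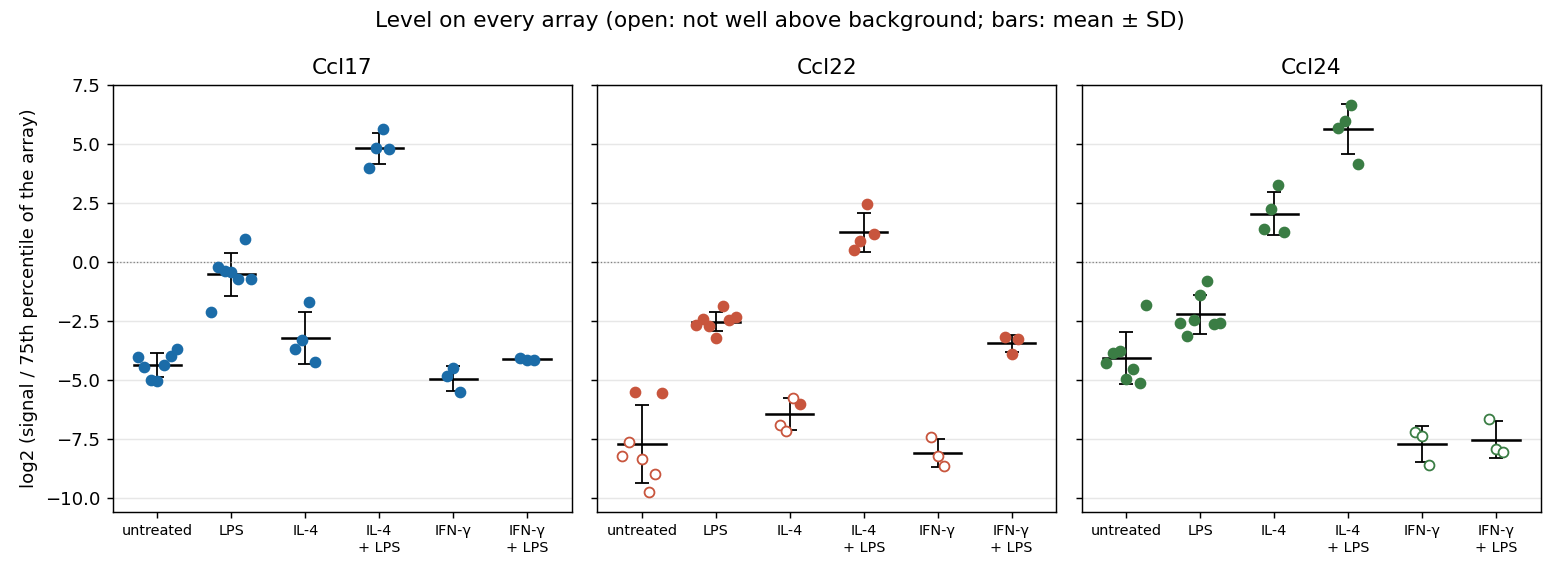
Level of Ccl17, Ccl22 and Ccl24 on each of the 28 arrays, by group. The vertical axis is log2 of the signal over the array's 75th percentile, filled points are well above background, open points are not, and bars give the group mean and SD. The 4 IL-4 with LPS arrays lie above every other array in all 3 panels, and Ccl24 in both IFN-γ groups has only open points.

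The change that LPS brought in IL-4 primed cells was 8.03 ± 0.50 for Ccl17 (261-fold), 7.71 ± 0.67 for Ccl22 and 3.57 ± 0.64 for Ccl24 (11.8-fold). All 3 were called higher (limma adjusted p 3.09e-12, 1.27e-09 and 8.43e-05), where 15.0% of all genes were. The Ccl22 value starts from IL-4 arrays of which 1 of 4 was above background, and it was 6.92 at the background floor and 4.03 under normexp. The change was larger in Ccl17 than in Ccl24 by 4.46 (exact permutation, adjusted p 0.0390). It was larger in Ccl22 than in Ccl24 by 4.14 (exact permutation, adjusted p 0.0390), but by 0.54 under normexp (adjusted p 0.520). Ccl17 minus Ccl22 was 0.32 (adjusted p 0.765, exact permutation), and 2.53 under normexp (adjusted p 0.0476).
The IL-4 by LPS interaction is the LPS change in IL-4 primed cells minus the LPS change in unprimed cells, and a positive value means more than the product of the separate fold changes. For Ccl17 it was 4.19 ± 0.63 (95% interval 2.89 to 5.49), an 18.3-fold excess with a limma adjusted p of 3.41e-04, and ranked 5 of 22400 genes by size. It was 2.53 ± 0.84 for Ccl22 (0.79 to 4.26, adjusted p 0.194) and 1.74 ± 0.81 for Ccl24 (0.08 to 3.40, adjusted p 0.595). So 1 of the 3 was called, where 0.911% of all genes had a positive and 0.719% a negative interaction. With the scan day as a block, Ccl22 and Ccl24 were called too (adjusted p 0.0360 and 0.0131), as they were with the slide set as a block (adjusted p 0.0277 and 0.00447), a setting chosen after the data were seen. At the background floor Ccl22 was called (3.14, adjusted p 0.00157) and Ccl24 was not (1.74, 0.534). Because 5 of 7 untreated and 3 of 4 IL-4 arrays gave Ccl22 no signal well above background, its interaction rests on values near the floor.

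The arrays lay on 10 slides scanned on 5 days, per the file headers. A slide set here is a slide, or the slides of 1 scan day joined, that held at most 1 array of a group. Arrays of different letters can share a set, as in set 1 with untreated A, LPS C, IL-4 A and IL-4 with LPS B. There were 7 such sets, and 4 held untreated, LPS, IL-4 and IL-4 with LPS arrays. Within these 4 sets the interaction of Ccl17 was 4.90, 3.30, 4.34 and 5.25, and was above 0 in all of them (mean 4.45 ± 0.85 SD, n = 4). Ccl22 gave 2.33, 3.22, 4.54 and 0.62 (mean 2.68 ± 1.64 SD), and Ccl24 gave 2.76, 0.97, 2.34 and 0.88 (mean 1.74 ± 0.95 SD). Ccl22 and Ccl24 were thus also above 0 in 4 of 4 sets, with a wide spread between sets. Grouped by letter, as planned, the means were 4.60 ± 1.57, 3.52 ± 1.53 and 2.82 ± 0.67 (SD, n = 4) for Ccl17, Ccl22 and Ccl24. An exact two-sided test with 4 sets cannot reach 0.05.
LPS exceeded untreated in 7 of 7 sets for each chemokine, by 2.90 to 5.33 for Ccl17, by 2.84 to 7.31 for Ccl22 and by 1.04 to 2.47 for Ccl24. IL-4 exceeded untreated in 4 of 4 sets for Ccl24 (5.10 to 6.43) and in 3 of 4 for Ccl17 (-0.25 to 1.99) and Ccl22 (-0.22 to 2.96). In slide set 3 Ccl24 was highest of its group in untreated, LPS, IL-4 and IL-4 with LPS arrays alike, at -1.82, -0.78, 3.28 and 6.66.

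**Figure D2:**
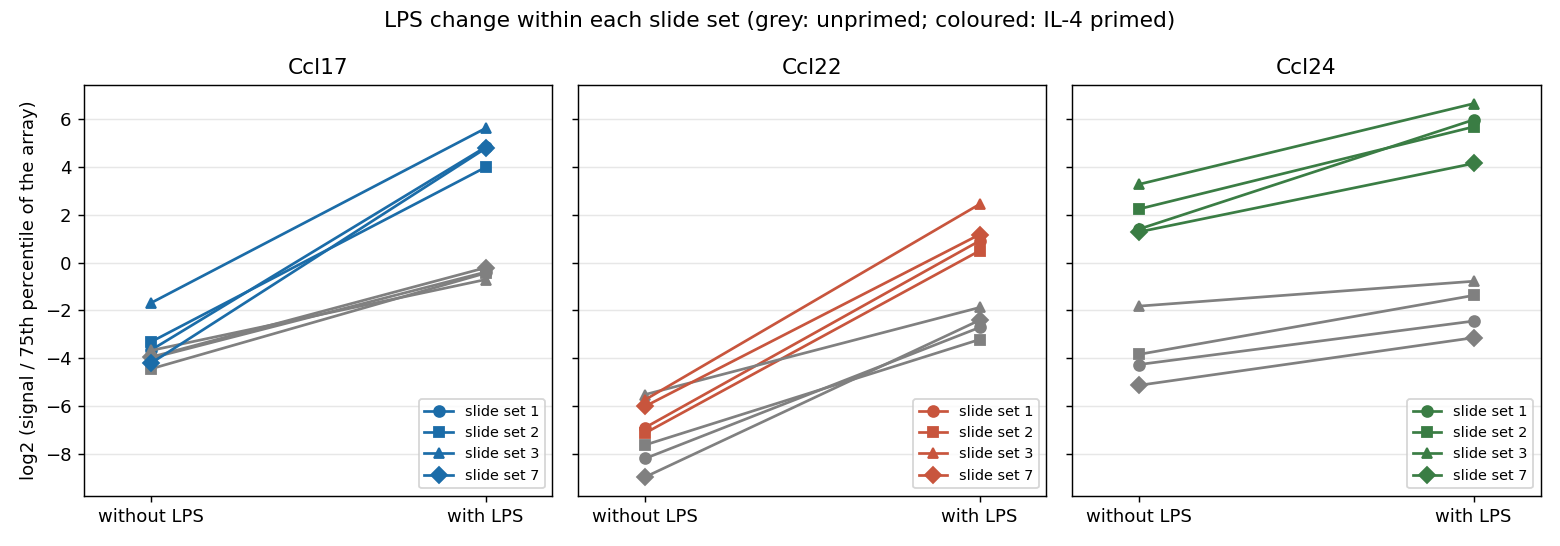
Level without and with LPS in the 4 slide sets that hold all 4 groups, with unprimed cells in grey and IL-4 primed cells in colour. The axis is log2 of the signal over the array's 75th percentile and each symbol is a slide set. The coloured lines of Ccl17 rise more steeply than the grey ones in every set, and the triangles (slide set 3) lie highest for Ccl24 in all 4 groups.

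A second measure of joint action is additive. In linear units (multiples of the array's 75th percentile) the sum of the single treatments, less the untreated level, was set against the joint treatment within each slide set. For Ccl17 the joint level was 28.6, 16.0, 49.5 and 27.6 against sums of 0.777, 0.793, 0.844 and 0.853, a ratio of 37.0 ± 16.0 (SD, n = 4). For Ccl22 it was 1.88, 1.41, 5.45 and 2.26 against 0.157, 0.109, 0.269 and 0.202, a ratio of 14.1 ± 4.18. For Ccl24 it was 63.3, 51.6, 101 and 17.8 against 2.78, 5.07, 10.0 and 2.53, a ratio of 12.5 ± 6.96. The joint level exceeded the sum in 4 of 4 sets for all 3 chemokines, and it also did when arrays were grouped by letter (ratios of 47.3 ± 13.2, 16.7 ± 13.4 and 12.4 ± 4.71). Where both agents raise a gene, fold changes that simply multiply also put the joint level above the sum. An excess over the sum therefore does not tell multiplying fold changes from a positive IL-4 by LPS interaction.

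**Figure D3:**
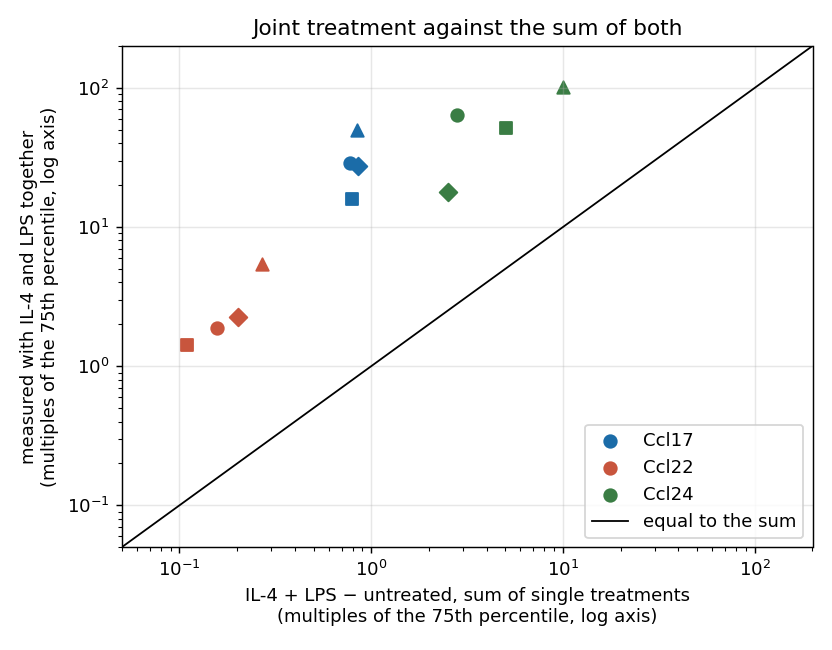
Level after IL-4 with LPS (vertical axis) against the sum of the single treatments less untreated (horizontal axis), both log axes in multiples of the array's 75th percentile. Each symbol shape is a slide set (circle 1, square 2, triangle 3, diamond 7), the line marks equality, and all 12 points lie above it.

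IFN-γ lowered Ccl24 and took it below the background of the arrays. Ccl24 stood at -7.18, -7.35 and -8.57 on arrays E, F and G after IFN-γ, and none was above background. It fell by 3.66 ± 0.63 against untreated cells (limma adjusted p 8.13e-05), and untreated cells were at least 6.98-fold higher. Such a bound is given for a group with no array above background. It compares the brighter group's mean with the dimmest level that counts as above background on the dim group's arrays. The probe's own level is used if higher. The bounds hold for the processed signal as scaled here, and under normexp correction the same differences were smaller.
Ccl17 stood at -4.84, -4.47 and -5.51 after IFN-γ and overlapped the untreated arrays, with a change of -0.59 ± 0.49 (adjusted p 0.386, limma), whose sign turned with the slide as a block (0.36) and under quantile normalization (0.0048). Ccl22 stood at -7.42, -8.22 and -8.62, below background on all 3 arrays, and its change was -0.38 ± 0.66 (adjusted p 0.682, limma), or 0.043 under quantile normalization and 0.063 under median scaling. So 1 of the 3 was called lower, where 13.1% of all genes were and the median change of all genes was -0.282. Under median scaling 4000 genes were called higher and 1135 lower in this comparison, in place of 2862 and 2935. Under normexp correction the Ccl24 change was -1.58 and not called (adjusted p 0.128).

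After IFN-γ, LPS raised Ccl22 but the test did not call a change in the other 2. Ccl22 stood at -3.19, -3.87 and -3.27 after IFN-γ with LPS, all above background and clear of the IFN-γ arrays. It rose by 4.64 ± 0.78 (limma adjusted p 1.97e-04), at least 10.6-fold, where 5.72% of genes rose, and under normexp correction by 2.27, which was not called (adjusted p 0.0784). Ccl17 stood at -4.05, -4.16 and -4.14, a change of 0.82 ± 0.58 (adjusted p 0.472, limma, 95% interval -0.37 to 2.02). Ccl24 stood at -6.63, -7.92 and -8.03, below background on all 3 arrays, so no fold is given. 
Against LPS alone, the cells given IFN-γ first had less Ccl17 (-3.60 ± 0.49, limma adjusted p 7.03e-06) and less Ccl24 (-5.31 ± 0.63, adjusted p 1.07e-06), LPS alone being at least 17.7-fold higher in Ccl24. Ccl22 differed by -0.92 ± 0.66 (adjusted p 0.357, limma, 95% interval -2.28 to 0.43). So 2 of the 3 were called lower, where 12.0% of genes were (2420 higher and 2693 lower, or 2479 and 964 under median scaling). Under normexp correction both missed the threshold, Ccl17 at -1.73 (adjusted p 0.0628) and Ccl24 at -1.13 (adjusted p 0.397). The difference of Ccl17 minus that of Ccl22 was -2.68 (exact permutation, adjusted p 0.0303), and -1.47 under normexp (0.0417).
The IFN-γ by LPS interaction of Ccl17 was -3.01 ± 0.69 (95% interval -4.44 to -1.58, limma adjusted p 0.00579) and was -2.11 or lower in each of the 3 slide sets that held these groups. It was -0.54 ± 0.93 for Ccl22 (adjusted p 0.919) and -1.65 ± 0.89 for Ccl24 (adjusted p 0.353), both of them above 0 under normexp (0.59 and 0.45, not called). With the scan day as a block the Ccl24 value of -1.65 was called (adjusted p 0.0120). So 1 of 3 was called lower, where 5.29% of genes were (691 higher and 1186 lower, or 262 and 783 under median scaling). The Ccl17 call was lost under normexp correction (-0.93, adjusted p 0.465) and over the scan days that held all groups compared (-2.83, adjusted p 0.0665).

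The primed groups were also set against each other. Ccl24 after IL-4 was at least 478-fold higher than after IFN-γ, and after IL-4 with LPS at least 4059-fold higher than after IFN-γ with LPS. These bounds hold for the scaling used, and under normexp the log2 differences were smaller, at 6.03 and 8.18 (limma adjusted p 9.67e-07 and 5.07e-08). Ccl17 exceeded by 1.72 ± 0.54 without LPS (limma adjusted p 0.0186) and by 8.93 ± 0.54 with it (487-fold, adjusted p 1.58e-11). Ccl22, above background on 1 of 4 IL-4 and 0 of 3 IFN-γ arrays, differed by 1.64 ± 0.73 without LPS. This did not pass (limma adjusted p 0.0982), and no fold is given because both groups lay near the floor. With LPS Ccl22 exceeded by 4.70 ± 0.73 (26.0-fold, limma adjusted p 2.85e-05). Of the 3, 2 were called higher without LPS, where 14.8% of genes were, and all 3 with LPS, where 13.8% were. Under median scaling the genes called higher and lower were 1326 and 3419 without LPS, in place of 3323 and 2933, and 1143 and 3129 with it, in place of 3089 and 2646. Over the single letter that these groups share, the Ccl22 difference with LPS was 4.44 and not called (adjusted p 0.101). The Ccl17 call without LPS was lost when IL-4 array C was left out (1.21, adjusted p 0.0890, limma) or IFN-γ array G (1.44, adjusted p 0.0845), and with the slide (0.66, 0.483), the scan day (1.19, 0.0884) or the slide set (1.19, 0.0933) as a block. The same scan day block called Ccl22 higher (1.76, adjusted p 0.0458).
The LPS change after IL-4 exceeded that after IFN-γ by 7.21 ± 0.77 in Ccl17 (limma adjusted p 5.00e-07). For Ccl22 the difference was 3.07 ± 1.03 (adjusted p 0.0899), and it was called with the scan day as a block (adjusted p 0.0170). For Ccl24 it was 3.39 ± 0.98 (adjusted p 0.0402), but rests on IFN-γ arrays below background, and leaving out 1 array ended the call in 10 of 14 cases. So 2 of 3 were called higher, where 3.55% of genes were.

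**Figure D4:**
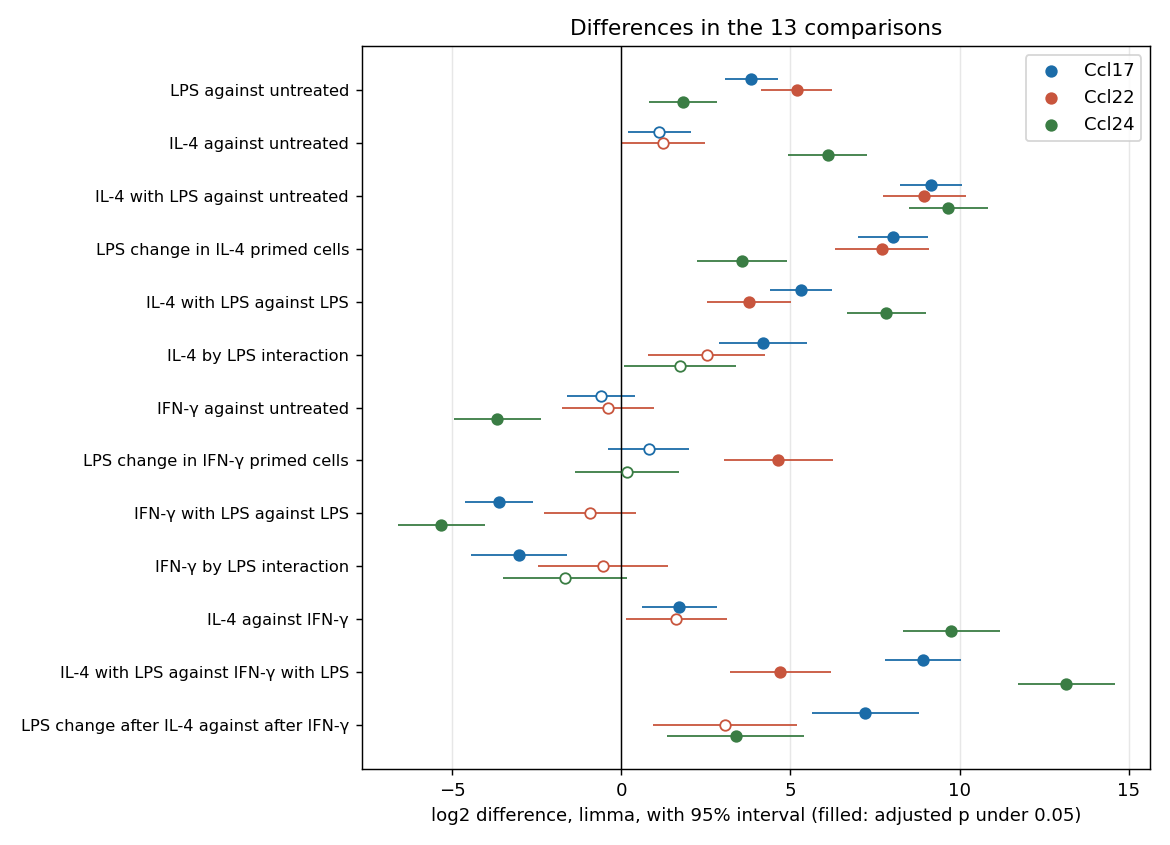
Log2 difference of each chemokine in the 13 comparisons, from the limma model of 28 arrays. Points are estimates, horizontal lines 95% intervals, and filled points have an adjusted p under 0.05. All 3 intervals lie above 0 for the IL-4 by LPS interaction, and only that of Ccl17 (4.19) is filled.

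The order of the group means, from high to low, differed between the chemokines. For Ccl17 it was IL-4 with LPS, LPS, IL-4, IFN-γ with LPS, untreated and IFN-γ. The first step (adjusted p 0.0262) and the step from LPS to IL-4 (adjusted p 0.0364) passed exact permutation tests adjusted over 15 neighbour pairs. The lower groups overlapped and their steps did not pass (adjusted p 0.256 to 0.596). The step from IL-4 to IFN-γ with LPS could not, as 4 against 3 arrays allow no unadjusted p below 0.0571 in this test.
For Ccl22 the order was IL-4 with LPS, LPS, IFN-γ with LPS, IL-4, untreated and IFN-γ. Only the first step of Ccl22 passed (adjusted p 0.0262, exact permutation). Its step from IFN-γ with LPS to IL-4, a fall of 3.01 without overlap, could not pass. With 3 against 4 arrays the smallest unadjusted p possible in that test is 0.0571. For Ccl24 the order was IL-4 with LPS, IL-4, LPS, untreated, IFN-γ with LPS and IFN-γ. In Ccl24 the steps from IL-4 to LPS, from LPS to untreated and from untreated to IFN-γ with LPS passed (adjusted p 0.0262, 0.0262 and 0.0417, exact permutation). Its first step did not overlap but had an adjusted p of 0.0612, the smallest unadjusted p that 4 against 4 arrays allow being 0.0286 (exact permutation). Of 15 group pairs, 10, 12 and 13 did not overlap for Ccl17, Ccl22 and Ccl24, where the median over 21889 genes measured on all arrays was 3, and 11.7%, 3.04% and 1.06% of genes had at least as many.

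The receptors of these chemokines were measured in the same cells. Ccr4, the receptor of CCL17 and CCL22, averaged between -6.55 (IFN-γ) and -4.67 (IL-4 with LPS), and its LPS change was 0.17 ± 0.60 (adjusted p 0.869, limma). Ccr3, the receptor of CCL24, rose by 1.58 ± 0.17 with LPS (adjusted p 2.02e-08) and was lower after IL-4 with LPS than after LPS (-1.20 ± 0.20, adjusted p 1.67e-04). Ccr8, a receptor of CCL1, was above background on 5 of 7 untreated arrays and 1 array in each other group. Of 7 receptors and decoy receptors, 2 rose with LPS (Ccr3 and Ccrl2, 5.41 ± 0.21), where 20.9% of all genes did. None had a called IL-4 by LPS interaction in limma (1 higher and 1 lower at an unadjusted p under 0.05). That is near the shares of all genes, 0.911% positive and 0.719% negative.

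Among 15 tested CC chemokines other than these 3, 9 rose and 2 fell with LPS, where 20.9% of all genes rose and 21.6% fell. Their median log2 change was 1.60, against 0.0553 over all genes, and Ccl5, Ccl8, Ccl7 and Ccl12 rose by 6.33, 6.05, 5.11 and 4.95. IL-4 raised 4 and lowered 4 of the 15, where it raised 5.85% and lowered 5.54% of all genes. Ccl8 rose by 4.43 and Ccl7 by 3.01, while Ccl4 fell by 1.76 and Ccl3 by 1.68. IL-4 with LPS exceeded LPS alone in 1 (Ccl8, 2.65 ± 0.33) and fell below it in 0 (limma, also 0 at an unadjusted p under 0.05). Over all genes these shares were 4.36% and 4.63%. The list median of the IL-4 by LPS interaction was 0.17 and that of all genes 0.0321. It was called positive in Ccl4 (1.64 ± 0.40) and Ccl5 (1.53 ± 0.28), attractants of T cells and monocytes, and in no other, against 0.911% of all genes. Both of these went down with IL-4 alone and reached the LPS level with both agents: against LPS, Ccl4 differed by -0.12 and Ccl5 by -0.0073 after the joint treatment. Those interaction counts are unstable, with 0 higher under normexp background correction, and 0 higher and 1 lower under median scaling.

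STAT6 target genes other than the 3 chemokines responded to IL-4 with and without LPS. Of 15 tested, 13 rose with IL-4, where 5.85% of all genes did (median 4.43, against 0.0115 over all genes). After IL-4 with LPS 14 were higher than after LPS, where 4.36% of all genes were (median 3.21, against 0.0782). Retnla, Arg1, Mgl2 and Pdcd1lg2 led the second comparison with 15.77, 10.79, 6.86 and 6.00. The interaction was called positive in 0 (limma, also 0 at an unadjusted p under 0.05) and negative in 1 of the 15 (Aqp3, a water channel, -2.83 ± 0.57), with a median of -0.29. Over all genes 0.911% had a positive and 0.719% a negative call, so 0 positive calls among 15 lies near that share. Ccl8 stands in this list as well as in that of the CC chemokines.

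IL-4 signalling genes include the receptor chains, kinases and factors downstream. Of 21 tested, 0 had a positive interaction in limma (4 at an unadjusted p under 0.05), near the share of 0.911% over all genes. A negative one was called in 4, where 0.719% of all genes had one. These were Socs1 (-4.51 ± 0.31), an inhibitor of cytokine signalling, Klf4 (-2.96 ± 0.42), Egr2 (-2.59 ± 0.48) and Pparg (-2.08 ± 0.26). The last 3 are transcription factors that IL-4 is known to induce in macrophages. After IL-4 with LPS 5 were higher than after LPS and 4 lower, where 4.36% and 4.63% of all genes were, led by Batf3 (3.93 ± 0.29), Irf4 (3.80 ± 0.34), Cish (3.43 ± 0.59) and Egr2 (2.41 ± 0.34). The receptor chains Il4ra and Il13ra1 rose with LPS by 3.50 ± 0.27 and 3.54, and were lower after IL-4 with LPS than after LPS (-1.43 ± 0.32 and -1.23 ± 0.28). Il2rg, the shared chain, rose by 1.16 with LPS, and Stat6 fell by 0.61 ± 0.12 (limma adjusted p 2.10e-04).
The factors and inhibitors of NF-κB carry the signal of LPS. All 7 of them rose with LPS (median 3.14), where 20.9% of all genes did. None differed between IL-4 with LPS and LPS alone (limma, also 0 at an unadjusted p under 0.05), where 4.36% of all genes were higher and 4.63% lower. Nfkbiz (2.74 ± 0.46) and Relb (1.39 ± 0.26) had a positive interaction, where 0.911% of all genes had one. Under normexp 0 of 7 had one, and 4 of 7 did with the slide set as a block. IL-4 alone lowered 4 of the 7, where it lowered 5.54% of all genes.

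Genes next to the chemokines on the chromosome were checked too. Of 8 measured neighbours, none had a called interaction in limma (1 higher and 1 lower at an unadjusted p under 0.05). Over all genes 0.911% had a positive and 0.719% a negative one, so a list of 8 without a call lies near those shares. Cx3cl1, the chemokine between Ccl22 and Ccl17, rose by 4.04 ± 0.40 with LPS and fell by 2.01 ± 0.47 with IL-4, and averaged 4.84 after LPS and 3.49 after IL-4 with LPS.

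By Pearson correlation over the 28 arrays, which share the treatments and the array scaling, the genes most like Ccl17 were Slc6a12 (r 0.969), Ubxn2a (0.943), Alpk2 (0.935), Tnfrsf13c (0.934) and Il12a (0.929). Their IL-4 by LPS interactions were 2.05, 1.56, 2.49, 3.77 and 4.28. Most like Ccl22 were Htra4 (0.956), Has1 (0.949), Slc6a20a (0.945), Il12a (0.936) and AK149472 (0.934), with interactions of -0.0040, 2.10, 2.30, 4.28 and -0.32. Most like Ccl24 were Iah1 (0.955), Aldh1a2 (0.948), Penk (0.943), Tslp (0.942) and Rpl10a (0.932), with interactions of -0.18, 0.97, 0.73, 0.97 and -0.033. Among the chemokines r was 0.881 for Ccl17 with Ccl22, 0.778 for Ccl17 with Ccl24 and 0.593 for Ccl22 with Ccl24.

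Markers of other cells moved with some groups. Ccl17 and Ccl22 are also made by dendritic cells, and the summed linear level of 8 dendritic cell markers was 2.58 to 5.12 in untreated arrays, 3.70 to 13.5 after LPS, 24.4 to 49.0 after IL-4 and 35.2 to 68.9 after IL-4 with LPS. Without Itgax, which macrophages also make, the sums were 0.407 to 0.712, 2.80 to 9.42, 0.499 to 0.660 and 2.25 to 4.66, so that the IL-4 with LPS arrays lay within or below the LPS range. Of the 8 markers, 6 were above background on every IL-4 and every IL-4 with LPS array. Cd209a and Clec9a were above background on none of these, and Cd209a on only 1 of 7 untreated arrays. After IL-4 with LPS 4 of 7 tested were called higher than in untreated cells (limma), where 21.6% of all genes were. The summed level of 5 eosinophil markers was 0.169 to 0.274 in untreated cells, 1.16 to 7.12 after IL-4 and 0.535 to 2.80 after IL-4 with LPS. Of 4 tested, only Ear1 was called higher with IL-4 (6.53), where 5.85% of all genes were. Without Ear1 the sums were 0.148 to 0.240, 0.124 to 0.211 and 0.182 to 0.332. For 6 T cell markers the sum was 0.281 to 0.563 in untreated cells, 1.50 to 5.10 after LPS and 0.891 to 3.67 after IL-4 with LPS. Against untreated cells, 1 of the 6 was called higher with LPS and 2 with IL-4 and LPS, where 20.9% and 21.6% of all genes were. For 5 B cell markers the sum in the same groups was 2.13 to 4.22, 1.16 to 2.41 and 3.15 to 7.12. The part of these markers' cells in the chemokine levels was not tested.

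The second Ccl24 probe gave the same calls in the comparisons above. It rose by 5.61 with IL-4 and by 1.31 with LPS (limma adjusted p 0.0250), exceeded LPS by 7.83 after IL-4 with LPS, and had an interaction of 2.21 (adjusted p 0.235).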

How the data were processed

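The deposited scanner files hold fluorescence intensity per spot of single-colour Cy3 arrays. Per the file headers, Agilent Feature Extraction 9.5.1 detrended the signal within each array and put surrogates in place of low spots, with no subtraction of the local background and each array was left on its own scale. A table of log2 values that the authors deposited beside them was not used because its columns did not match the scanner files of their own samples. Each column matched some scanner file closely (correlation of at least 0.9997). For 26 of 28 columns this was the file of another sample, and for 13 that of another group. Sample names thus differ between the table and the scanner files. The response genes above check the groups of the scanner files but not the letters, which were not tested. Here the processed signal was divided by the array's 75th percentile and taken to log2, outlier spots (at most 414 on an array) were dropped, and repeated spots were averaged. None of the chemokines' spots was an outlier or saturated. Probes were named through RefSeq tables by transcript accession (22944), symbol (6664) or synonym (3108), and 8458 kept the array's name. A gene was represented by its brightest probe and tested if well above background on at least 3 of 28 arrays, which left 22400 genes (22399 in comparisons with IFN-γ).

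A single linear model with 6 group means was fitted to all arrays with limma 3.58.1 (R 4.3.3, package data.table in version 1.17.8), two-sided, with Benjamini-Hochberg adjustment over all genes, and 13 comparisons were drawn from it. Neighbouring groups and differences in response between the chemokines were compared with exact two-sided permutation tests (SciPy 1.17.1, NumPy 2.4.6, pandas 2.3.3, Python 3.11.15, with Matplotlib 3.10.9 for the plots). Named genes are the 3 chemokines, the receptors Ccr3, Ccr4 and Ccr8, the chains Il4ra, Il13ra1 and Il2rg with Stat6, the 5 genes most correlated with each chemokine, and up to 4 called genes of largest change per list and comparison. Cx3cl1 was named after its values were seen. The chemokines, gene lists and tests were chosen with earlier results of these data known. Alternatives covered background correction (normexp with an offset of 50), scaling, the filter, dim spots at the background floor and the probe rule. They also covered blocks for letter, slide and scan day, the arrays in the fit, and leaving out each array. Precision is limited by having 3 to 7 arrays in a group.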

Additional observations from a re-analysis of the deposited data

Results flagged for a closer look

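Ccl24 stood at -1.82 on untreated array G, apart from the other 6 untreated arrays by more than Dixon's critical value. It was the only such array among 12 groups of 4 or 7 arrays tested for the 3 chemokines, and chance alone marks about 1 group in 20. The LPS, IL-4 and IL-4 with LPS arrays of the same slide set were also the highest of their groups in Ccl24.

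The LPS change differed between primings in 4 tests of the difference itself (limma). For Ccl17 it was larger in IL-4 primed than in unprimed cells by 4.19, smaller in IFN-γ primed than in unprimed cells (-3.01), and larger after IL-4 than after IFN-γ by 7.21. For Ccl24 it was larger after IL-4 than after IFN-γ by 3.39, where all IFN-γ arrays were below background.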

How the results depend on the processing

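Of 582 values under alternatives besides leaving out an array, 527 kept their direction and side of the threshold, 24 lost the call, 23 gained one, 2 moved and 6 reversed. Of 477 values with 1 array left out, 463 kept both, 12 lost the call and 2 reversed. None of the 8 reversed values was called on either side. They were Ccl17 with IFN-γ with the slide as a block (0.36) and after quantile scaling (0.0048), Ccl22 with IFN-γ after quantile (0.043) and median scaling (0.063), the IFN-γ by LPS interactions of Ccl22 (0.59) and Ccl24 (0.45) under normexp, and the LPS change of Ccl24 after IFN-γ (-0.28 to 0.44 with 1 array left out). Losses were Ccl17 in IL-4 against IFN-γ (1.21 to 2.05) and the Ccl24 difference in LPS change between primings (3.05 to 3.88).
Changed calls follow with limma's adjusted p, and the cause was not tested. With the slide as a block, the IL-4 by LPS interaction was called for Ccl22 (2.56, 0.0237) and Ccl24 (1.61, 0.00903), as were the Ccl24 interaction of IFN-γ with LPS (-1.78, 0.00262), Ccl22 in IL-4 against IFN-γ (1.89, 0.0494) and the Ccl22 difference in LPS change (3.07, 0.00778), while Ccl17 in IL-4 against IFN-γ lost its call (0.66, 0.483). With the scan day as a block these values were 2.53 (0.0360), 1.74 (0.0131), -1.65 (0.0120), 1.76 (0.0458), 3.07 (0.0170) and 1.19 (0.0884), and with the slide set as a block, an added setting, 2.53 (0.0277), 1.74 (0.00447), -1.65 (0.00424), 1.76 (0.0372), 3.07 (0.0133) and 1.19 (0.0933).
Over letters in all groups compared, the Ccl22 interaction was called (3.52, 0.0391), while Ccl17 in IL-4 against IFN-γ (1.30, 0.606), Ccl22 in IL-4 with LPS against IFN-γ with LPS (4.44, 0.101) and the Ccl24 difference in LPS change (2.33, 0.9998) lost their calls. Over scan days that hold all groups, also added after seeing the data, the same 3 calls were lost at the same values, as was the Ccl17 interaction of IFN-γ with LPS (-2.83, 0.0665). In fits of only the groups compared, Ccl22 in IFN-γ with LPS against LPS (-0.92, 0.0479), Ccl22 in IL-4 against IFN-γ (1.64, 0.0359) and the Ccl22 difference in LPS change (3.07, 0.0265) were called, and Ccl17 in IL-4 against IFN-γ (1.72, 0.0744) and the Ccl24 difference (3.39, 0.0656) were not.
Under normexp, calls were lost for Ccl24 with LPS (0.89, 0.255), Ccl24 with IFN-γ (-1.58, 0.128), Ccl22 with LPS after IFN-γ (2.27, 0.0784), Ccl17 and Ccl24 in IFN-γ with LPS against LPS (-1.73, 0.0628 and -1.13, 0.397), the Ccl17 interaction of IFN-γ with LPS (-0.93, 0.465), Ccl17 in IL-4 against IFN-γ (1.50, 0.142) and the Ccl24 difference in LPS change (2.15, 0.418). The Ccl17 IL-4 by LPS interaction stayed called (4.27, 0.00902). Normexp moved the median of all genes by over 0.1, to -0.843 for the difference in LPS change and 0.744 for the IFN-γ by LPS interaction. Quantile scaling called Ccl17 with IL-4 (1.28, 0.0343) and the Ccl22 difference in LPS change (3.12, 0.0279), median scaling lost Ccl17 in IL-4 against IFN-γ (1.37, 0.0657), and no filter lost the Ccl24 difference (3.39, 0.0514). With dim spots at the background floor, an added setting, the Ccl22 IL-4 by LPS interaction (3.14, 0.00157) and difference in LPS change (3.51, 0.00118) were called and the Ccl24 difference (3.08, 0.0520) was not. The mean IL-4 by LPS interaction of Ccl24 on the log2 scale, 2.82 when grouped by letter, was 2.13 after quantile scaling and 1.74 over slide sets.
Called genes ranged from 22 to 600 higher for the IL-4 by LPS interaction (204 in the fit reported), from 18 to 524 lower (161), from 258 to 1928 higher for IL-4 with LPS against LPS (977), from 364 to 2196 for IL-4 (1310), from 2904 to 7273 for LPS (4685), from 1835 to 6295 for LPS after IL-4 (3354), from 420 to 3619 for LPS after IFN-γ (1282), from 97 to 1885 for the difference in LPS change (795), from 400 to 3674 for IL-4 against IFN-γ (3323) and from 389 to 3568 for the same with LPS (3089). Lower calls ranged from 1006 to 3802 with IFN-γ (2935), from 964 to 3985 for IFN-γ with LPS against LPS (2693) and from 610 to 2405 for the IFN-γ by LPS interaction (1186).
The replicate block of experiment letters lost the Ccl24 difference in LPS change (3.39, adjusted p 0.0611, limma) and changed no other call, with IL-4 by LPS interactions of 4.19 for Ccl17 (6.55e-04), 2.53 for Ccl22 (0.164) and 1.74 for Ccl24 (0.652). Deviations of 46 same-letter pairs correlated between -0.531 and 0.729, with 0.152 to 0.729 for the 15 scanned on the same day and -0.531 to 0.441 for the other 31. The authors' table as an alternative was not run, since 2 of its 28 columns matched their own scanner file best.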
